A study of Mus musculus with 6 samples.

Results

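The kinases described here are the members of the mitogen-activated protein (MAP) kinase cascade that carry the gene symbols *Mapk*, *Map2k*, *Map3k* or *Map4k* followed by a number, with *Map3k7* and *Map3k14* left out. Of 26216 gene names in the files, 38 met this rule, namely 13 *Mapk*, 7 *Map2k*, 13 *Map3k* and 5 *Map4k* genes. RNA had been sequenced from LT/ST-HSCs, the long-term and short-term hematopoietic stem cells, sorted from the bone marrow of mixed chimeras at week 6 after transplantation. The comparison asks which transcripts differ in these cells between donors without and with the lymphotoxin β receptor, which is encoded by *Ltbr*. The chimeras were lethally irradiated Ly5.1/Ly5.2 mice that had received LSKs, a stem and progenitor fraction of the bone marrow, from both donors. One donor was *Ltbr*-/- (CD45.2, homozygous for an intragenic deletion in every cell) and the other was Ly5.1 (CD45.1, with intact *Ltbr*), so irradiation, recipients and time were shared by both groups. Each group held 3 samples, and the 6 chimeras had been pooled to 3 biological replicates. Donor mice were 13 weeks old for *Ltbr*-/- replicate 1, 10 weeks for replicate 2 and between 10 and 13 weeks for replicate 3, against 7 to 13 weeks for the Ly5.1 replicates, and age and genotype therefore cannot be fully told apart. The donors were also separate mouse lines that differ at CD45. The Ly5.1 line was purchased and the *Ltbr*-/- line came from another laboratory, so line and *Ltbr* genotype cannot be told apart.

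MAP kinase signalling passes a signal from the cell membrane to transcription factors through kinases that phosphorylate each other in sequence. A MAP4K activates a MAP3K, the MAP3K phosphorylates a MAP2K, and the MAP2K phosphorylates both a threonine and a tyrosine of its MAPK. The ERK branch mainly answers growth factors such as stem cell factor, whereas the JNK and p38 branches answer cytokines and stress, and in hematopoietic stem cells p38 is known for its link to loss of quiescence and of repopulating capacity.

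The values are a normalized signal per gene and sample on a linear scale, and differences are given as the log2 fold change of *Ltbr*-/- over Ly5.1 with its standard error (SE) or 95% interval. A gene was tested with limma when it ranked in the upper 50% of names by mean, as did 13108 genes and 34 of the 38 kinases. The verbs rose and fell are used only at a Benjamini-Hochberg adjusted p under 0.05 over all 13108 genes. The targeted gene *Ltbr* had a signal of 24.2, 26.4 and 23.1 in *Ltbr*-/- and of 564, 549 and 522 in Ly5.1, so that each sample matched its label. All 12 markers of hematopoietic stem cells were in the tested range, and 3 of them fell. The 8 of 8 neutrophil markers fell and none was listed at 1 or below in all samples, with a summed signal of 42902 to 43418 in *Ltbr*-/- and of 56241 to 60671 in Ly5.1. Of the mast cell and basophil markers, *Cma1* and *Cpa3* rose, *Prss34* fell and *Tpsb2* was at 1, with 4 of 6 tested below 0 and sums of 7506 to 8077 against 4115 to 4701. The B cell markers summed to 1401 to 1535 against 2255 to 2419, with 1 of 8 higher (*Cd79a*) and 2 lower (*Igkc* and *Ighm*), while the defining genes *Ms4a1*, *Pax5* and *Ebf1* had means of 1.16 to 2.13. Erythroid markers summed to 3627 to 3854 against 2515 to 2804, with *Hba-a1* as the 1 of 6 tested that rose. Megakaryocyte markers summed to 11921 to 12648 against 9493 to 10726, where *Itga2b* rose and holds most of the sum, *Pf4* fell and 3 of 4 tested lay below 0. In the monocyte and macrophage list *Emr1* (0.83) and *Cd68* (0.28) rose and *Lyz2* (-0.42) fell, with sums of 6770 to 7501 against 7497 to 7966. T cell markers summed to 244 to 254 against 240 to 275, with *Cd3e* and *Cd8a* at or below 1. The part of other cells in the kinase differences was not tested, and fewer cells of a type and less RNA per cell cannot be told apart in bulk samples. Of 80 ribosomal protein genes tested, 77 rose and 1 fell. When each sample was centred on these genes, the median difference of all tested genes moved to -0.89 and all 34 kinases lay below 0, so directions are stated relative to the deposited scale, and values under that centring are given relative to this median. Centring shifts the difference of every gene by the same amount. A value relative to the median therefore restates the deposited difference and is no further evidence for it.

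All tiers of the cascade were present in LT/ST-HSCs (levels are compared between genes as signal per kb of the longest protein-coding transcript). The highest level was that of *Map4k1* (HPK1, a kinase largely restricted to blood cells) at 896 per kb. It was followed by *Map2k2* (MEK2) at 780 and *Mapk3* (ERK1) at 778, by *Map4k2* at 582 and by *Mapk14* (p38α) at 524. Within the MAP3K tier, which receives the upstream signals, *Map3k11* (MLK3) had the highest level, at 336 per kb. The p38 genes spanned a wide range, with *Mapk14* at 524, *Mapk12* (p38γ) at 189, *Mapk13* (p38δ) at 67.2 and *Mapk11* (p38β) at 17.5 per kb. For JNK, *Mapk9* (JNK2) reached 140 and *Mapk8* (JNK1) 42.2 per kb. At the low end of the tested kinases were *Map3k2* (MEKK2) and *Map3k9* (MLK1), both at 12.8 per kb. The other 4 kinases lay below the filter. *Mapk10*, the JNK known from brain, and *Mapk4* (ERK4) were at 1 in every sample, *Mapk15* was at 1.26 to 1.28 and *Map3k13* (LZK) at 1.77 to 1.82, and no difference was detectable at these levels.

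**Figure D1:**
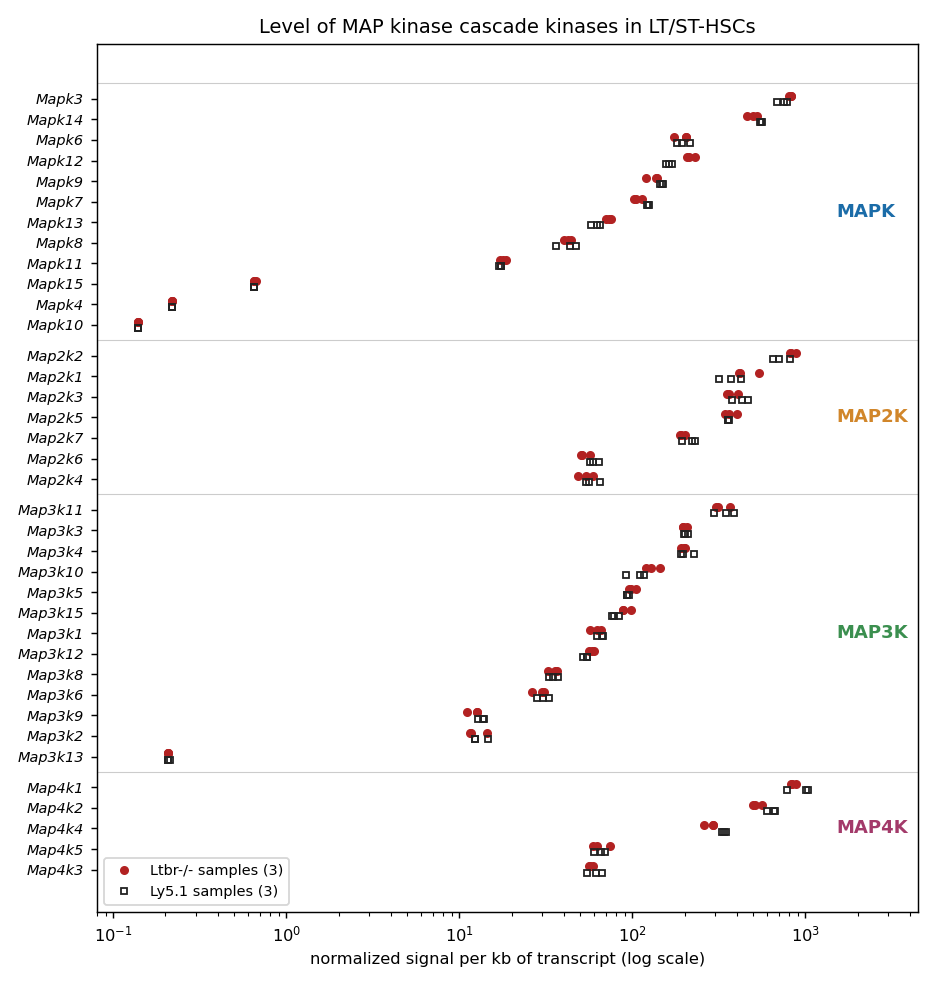
Normalized signal per kb of transcript (log axis) of 37 kinases in each of the 3 *Ltbr*-/- samples (filled circles) and 3 Ly5.1 samples (open squares), ordered within each tier by mean level. Plotted values run from 896 per kb for *Map4k1* to 0.139 for *Mapk10*. The signals of *Mapk10* and *Mapk4* were 1 in every sample, so their plotted values are set by transcript length alone. The spread between genes is far wider than that between samples of a gene.

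Differences between the genotypes were small and ran in both directions. Of the 34 tested kinases, 4 (11.8%) passed the test, against 14.8% of all tested genes. *Mapk12* and *Map3k10* rose (10.6% of all genes rose) and *Map4k2* and *Map4k4* fell (4.18% of all genes fell). None of them reached a fold of 1.5, a size that 2.78% of all genes combined with the test, and the numbers of kinases in each tier are small. At an unadjusted p under 0.05 by limma, the count was 13 of the 34 kinases, against 3555 of all 13108 tested genes. In 13 kinases (38.2%) the 3 *Ltbr*-/- values did not overlap the 3 Ly5.1 values, against 30.4% of all genes, and 7 of them were higher in *Ltbr*-/- (17% of all genes) and 6 lower (13.5%). The log2 fold change was above 0 for 13 kinases and below 0 for 21, with a median of -0.06 beside -0.01 over all tested genes. By tier the median was -0.0066 for the 10 MAPKs tested, -0.11 for the 7 MAP2Ks, -0.04 for the 12 MAP3Ks and -0.15 for the 5 MAP4Ks. The MAP4K tier was the only one with all values below 0, but its *Map4k5*, at -0.0032, lay above the median of all genes. For a single gene, an exact two-sided permutation test of 3 against 3 samples cannot go below p = 0.1.

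**Figure D2:**
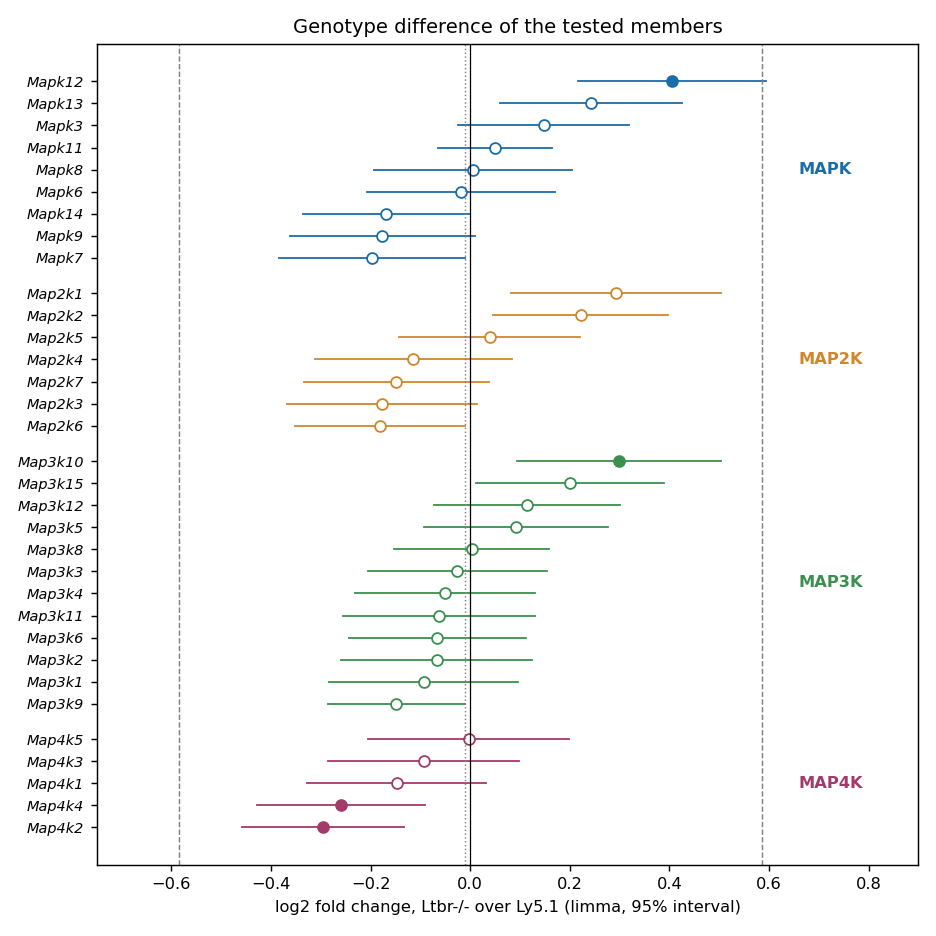
Log2 fold change of *Ltbr*-/- over Ly5.1 with the 95% interval from limma for 33 tested kinases by tier, with filled points for an adjusted p under 0.05, a dotted line at the median of all tested genes and dashed lines at a fold of 1.5. *Mapk12* and *Map3k10* lie to the right and *Map4k2* and *Map4k4* to the left, and no interval lies wholly beyond a fold of 1.5. Centring on ribosomal protein genes places all these values below 0.

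Of the p38 MAPKs, *Mapk12* passed the test and the others did not, and a difference between them was not tested. *Mapk12*, which encodes p38γ, a form with a PDZ-binding end that is best known from muscle, had a signal of 382, 416 and 373 in *Ltbr*-/- and of 283, 305 and 295 in Ly5.1. All *Ltbr*-/- samples were above all Ly5.1 samples. *Mapk12* rose from 295 ± 11.0 to 390 ± 22.3 (mean ± SD, n = 3), a log2 fold change of 0.41 (SE 0.09, limma adjusted p = 0.0017). After centring on ribosomal protein genes its value turned negative and lay 0.42 above the median of all genes, which restates the same difference. It passed the test in each of the 6 fits that left out 1 sample, with values of 0.36 to 0.44. *Mapk14* encodes p38α, the main p38 of most cells, and read 1793, 1878 and 1644 in *Ltbr*-/- against 1969, 1976 and 2024 in Ly5.1. Here all *Ltbr*-/- values were the lower ones, but the difference of -0.17 did not pass (95% interval -0.34 to -0.0027, limma adjusted p = 0.177). *Mapk13*, which encodes p38δ and was singled out after its values had been seen, had 215, 220 and 206 against 184, 169 and 190. Its *Ltbr*-/- values were again above the Ly5.1 values, at a difference of 0.24 (SE 0.09) that missed the threshold (limma adjusted p = 0.0664) except where the variance was modelled without a trend (adjusted p = 0.0425). *Mapk11* (p38β) differed by 0.05 (limma adjusted p = 0.621). Relative to *Mapk14* in the same sample, which no scaling of the sample can change, *Mapk12* stood at 0.221 ± 0.007 in *Ltbr*-/- and 0.148 ± 0.006 in Ly5.1, and *Mapk13* at 0.121 ± 0.004 and 0.091 ± 0.005. These ratios were chosen after the values were seen and are given without a test.

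**Figure D3:**
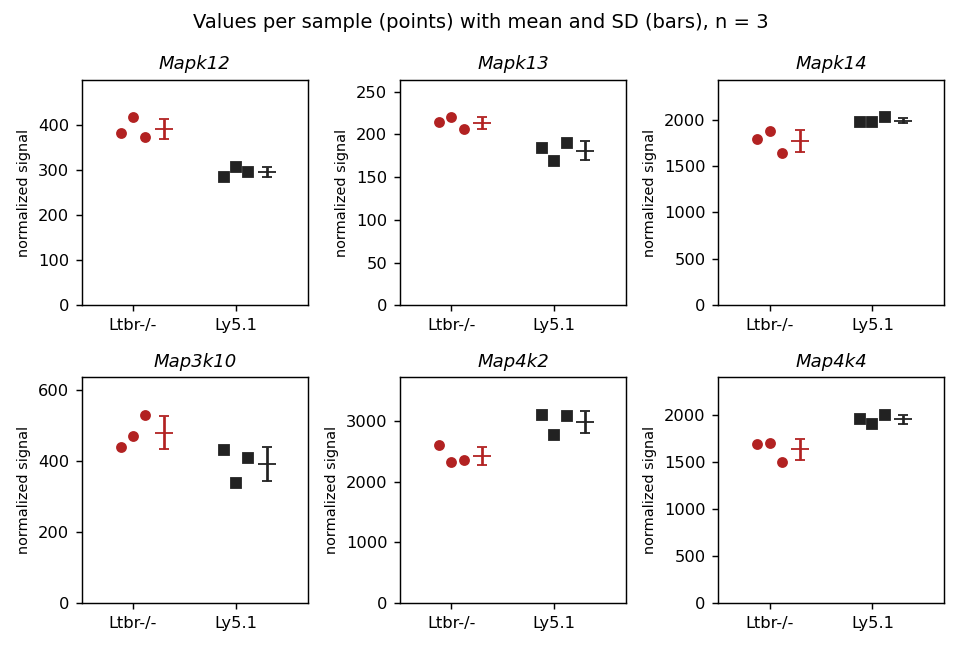
Normalized signal in each of the 3 *Ltbr*-/- samples (circles) and 3 Ly5.1 samples (squares), with mean and SD, for the p38 genes *Mapk12*, *Mapk13* and *Mapk14* and for the upstream kinases *Map3k10*, *Map4k2* and *Map4k4*. Axes start at 0. *Mapk12*, *Mapk13* and *Map3k10* are higher in *Ltbr*-/- and *Mapk14*, *Map4k2* and *Map4k4* lower on the deposited scale, with no overlap in any of the 6 panels, and centring on ribosomal protein genes places all 6 lower in *Ltbr*-/-.

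On the genome (GRCm38.p6, RefSeq gene models), the p38 genes lie in pairs. *Mapk12* (chr15:89130584-89141577) and *Mapk11* (chr15:89142482-89149606) are 905 bp apart, and *Mapk14* (chr17:28691342-28748405) and *Mapk13* (chr17:28769286-28778704) are 20.9 kb apart. In each pair the neighbours did not share a result, since *Mapk12* passed the test and *Mapk11* did not, and the *Mapk14* and *Mapk13* values had opposite signs on the deposited scale. These differences between neighbours were not tested. The promoters of *Mapk12* and *Mapk13* are shown because both genes were higher in *Ltbr*-/- in all samples. They come from the RefSeq promoter table and begin 250 bases before the start used there. They run up to that start or to the first GENCODE exon, whichever comes first. The letters read 5′ to 3′ on the strand of the gene, with capitals for motif matches on either strand. The *Mapk12* sequence (chr15:89140704-89140953, minus strand) holds a GC box (GGGCGG) and an E-box (CACGTG), and the *Mapk13* sequence (chr17:28769067-28769296, plus strand) holds 4 GC boxes. The RefSeq model of *Mapk12* extends further upstream than the start used, so its whole window lies inside the gene model. That of *Mapk13* begins at 28769286, shortly before its window ends, so the last GC box lies inside the gene model.
Mapk12: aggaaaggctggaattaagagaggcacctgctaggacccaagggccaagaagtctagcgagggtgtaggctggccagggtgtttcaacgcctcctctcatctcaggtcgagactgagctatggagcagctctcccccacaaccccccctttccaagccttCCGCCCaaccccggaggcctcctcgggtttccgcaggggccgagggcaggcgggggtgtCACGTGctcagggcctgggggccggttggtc
Mapk13: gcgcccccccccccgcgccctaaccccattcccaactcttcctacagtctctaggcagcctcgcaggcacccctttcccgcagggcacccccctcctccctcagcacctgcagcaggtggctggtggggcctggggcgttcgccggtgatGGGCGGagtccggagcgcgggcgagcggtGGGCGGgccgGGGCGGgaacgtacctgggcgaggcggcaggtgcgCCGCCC

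The remaining MAPKs, which act at the bottom of the cascade, did not pass the test. *Mapk3*, encoding ERK1, had 1484, 1443 and 1486 in *Ltbr*-/- and 1400, 1233 and 1357 in Ly5.1. The *Ltbr*-/- values were the higher ones throughout, at a difference of 0.15 (95% interval -0.02 to 0.32, limma adjusted p = 0.265). *Mapk7* encodes ERK5, which carries a transcription activation domain beside its kinase domain, and read 341, 370 and 334 against 395, 398 and 405. It was lower in all *Ltbr*-/- samples, with a difference of -0.20 (limma adjusted p = 0.159). Of the JNKs, *Mapk9* had 637, 649 and 560 against 679, 698 and 705, and *Mapk8* had 253, 245 and 230 against 209, 270 and 250. *Mapk9* was lower in all *Ltbr*-/- samples at -0.18 (limma adjusted p = 0.211), whereas *Mapk8* overlapped at 0.0054 (95% interval -0.19 to 0.20, limma adjusted p = 0.982) and changed sign when *Ltbr*-/- replicate 1 (-0.03), *Ltbr*-/- replicate 2 (-0.0024) or Ly5.1 replicate 1 (-0.10) was left out. *Mapk6* (ERK3), an unusual MAPK whose activation loop lacks the usual tyrosine, differed by -0.02.

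No MAP2K passed the test with limma, and 3 of 7 had an unadjusted p under 0.05 (3555 of 13108 over all tested genes). In none of the 7 were the groups free of overlap, against 30.4% of all genes. *Map2k1*, which encodes the ERK activator MEK1, had 1015, 1307 and 1002 in *Ltbr*-/- and 904, 770 and 1040 in Ly5.1. A single high *Ltbr*-/- sample and a single low Ly5.1 sample stood at the ends of its range, and it had the widest replicate spread of the tested kinases, with an SD of 0.217 on the log2 scale. Its exact permutation p was 0.3, and its limma SE of 0.10 draws also on the spread of other genes. Its difference of 0.29 (95% interval 0.08 to 0.50) missed the threshold (limma adjusted p = 0.0514), and it was past it without *Ltbr*-/- replicate 1 (0.35, limma adjusted p = 0.0395), without *Ltbr*-/- replicate 3 (0.36, 0.0475) and without Ly5.1 replicate 3 (0.40, 0.00658). It also passed among the upper 25% of names (limma adjusted p = 0.023) and when each sample was shifted to a common median (0.0476). *Map2k2*, for MEK2, had 1992, 1952 and 2108 against 1683, 1567 and 1957. Only its highest Ly5.1 sample reached the *Ltbr*-/- range, and the difference of 0.22 (95% interval 0.05 to 0.40) had a limma adjusted p of 0.0814, which became 0.0107 without Ly5.1 replicate 3 and 0.0367 among the upper 25% of names. The p38 activator *Map2k6* (MKK6) had 107, 118 and 106 against 134, 124 and 118, with the highest *Ltbr*-/- sample level with the lowest Ly5.1 sample at the precision given, and differed by -0.18 (limma adjusted p = 0.153). The other p38 activator, *Map2k3* (MKK3), was also at -0.18, and the JNK activators *Map2k4* (MKK4) and *Map2k7* (MKK7) were at -0.11 and -0.15. Of the 76-base windows of the *Map2k7* transcript, 36.9% also occur in the gene model *Gm49320*, so its count is uncertain. *Map2k5*, the activator of ERK5, was at 0.04. Grouped by branch, the JNK kinases had a median of -0.13 with 1 of 4 above 0. The 6 p38 kinases had a median of -0.06 with 3 above 0, and the ERK5 kinases (*Mapk7*, *Map2k5*, *Map3k2* and *Map3k3*) a median of -0.05 with 1 of 4 above 0. Of the ERK branch, *Mapk3*, *Map2k1* and *Map2k2* were above 0 on the deposited scale, as given above, and no median is reported for it here. These branches were grouped with results known and were given no test.

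In the MAP3K tier, *Map3k10* passed the test. It encodes MLK2, a mixed lineage kinase that acts on the JNK branch and is bound by the GTPases Rac and Cdc42. Its signal was 440, 472 and 530 in *Ltbr*-/- and 430, 337 and 409 in Ly5.1. The lowest *Ltbr*-/- sample lay just above the highest Ly5.1 sample. *Map3k10* rose from 392 ± 48.9 to 481 ± 45.5 (mean ± SD, n = 3), a log2 fold change of 0.30 (SE 0.10, limma adjusted p = 0.0402). After centring on ribosomal protein genes its value turned negative and lay 0.31 above the median of all genes, which restates the same difference. The call was lost without *Ltbr*-/- replicate 2 (0.31, limma adjusted p = 0.0746), without *Ltbr*-/- replicate 3 (0.23, 0.233) and without Ly5.1 replicate 2 (0.19, 0.273). It was also lost without the filter (limma adjusted p = 0.0678), with quantile normalization (0.0505) and without the variance trend (0.0753). *Map3k11*, which encodes the related MLK3, had 1225, 1186 and 1430 against 1509, 1161 and 1352. Its groups overlapped fully, at -0.06 (95% interval -0.26 to 0.13, limma adjusted p = 0.723), and without Ly5.1 replicate 1 the value was 0.026. *Map3k9*, for MLK1, had 58.0, 57.9 and 50.5 against 62.1, 58.4 and 63.6. It was lower in all *Ltbr*-/- samples, by a narrow margin, at -0.15 (limma adjusted p = 0.146). The ratio of *Map3k10* to *Map3k11*, likewise chosen with the values known, was 0.376 ± 0.020 in *Ltbr*-/- and 0.292 ± 0.009 in Ly5.1.

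Among the other MAP3Ks, *Map3k15* (ASK3), *Map3k12* (DLK) and *Map3k5* (ASK1, a kinase held inactive by reduced thioredoxin) were at 0.20, 0.11 and 0.09, each higher in all *Ltbr*-/- samples and none past the test on the deposited scale. The MEKKs *Map3k1*, *Map3k2*, *Map3k3* and *Map3k4* lay between -0.09 and -0.03. *Map3k6* (ASK2) was at -0.07 and *Map3k8* (TPL2, the MAP3K that links NF-κB1 to ERK) at 0.003. The *Map3k10* promoter (chr7:27674599-27674831, minus strand) is shown as that of the MAP3K that rose on the deposited scale. It holds 1 match each to the AP-1 motif (TGANTCA) and to the cAMP response element (TGACGT), and was the only one of the 30 kinases with a promoter entry that held both. On this strand the RefSeq model of *Map3k10* begins at 27674630, within the window, so the cAMP response element lies inside the gene model.
Map3k10: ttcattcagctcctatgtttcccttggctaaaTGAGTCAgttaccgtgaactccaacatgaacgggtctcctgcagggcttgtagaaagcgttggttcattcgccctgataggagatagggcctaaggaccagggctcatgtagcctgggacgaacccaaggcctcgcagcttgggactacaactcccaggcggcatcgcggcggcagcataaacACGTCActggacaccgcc

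All 5 MAP4Ks, the kinases at the top of the cascade, had values below 0, and 2 of them (40.0%, against 4.18% of all genes that fell) passed the test. *Map4k2* encodes a kinase abundant in germinal center B cells that acts on MAP3Ks of the JNK branch downstream of tumor necrosis factor receptors. It had a signal of 2596, 2325 and 2359 in *Ltbr*-/- and of 3097, 2766 and 3075 in Ly5.1. All *Ltbr*-/- samples were below all Ly5.1 samples. *Map4k2* fell from 2979 ± 185 to 2426 ± 147 (mean ± SD, n = 3), a log2 fold change of -0.30 (SE 0.08, limma adjusted p = 0.00879). Without *Ltbr*-/- replicate 2 the adjusted p was 0.0626 (limma, -0.27) and without *Ltbr*-/- replicate 3 it was 0.0525 (-0.28). *Map4k4* encodes HGK, which is known for its part in cell migration, and read 1694, 1700 and 1503 against 1958, 1900 and 1999. Again all *Ltbr*-/- samples were the lower ones. *Map4k4* fell from 1952 ± 49.7 to 1633 ± 112 (mean ± SD, n = 3), a log2 fold change of -0.26 (SE 0.08, limma adjusted p = 0.0293). Its call was lost without *Ltbr*-/- replicate 3 (-0.20, limma adjusted p = 0.187), Ly5.1 replicate 1 (-0.26, 0.0705) or Ly5.1 replicate 3 (-0.24, 0.0607), and after the loess fit on length and GC described further on (-0.19, 0.0988). *Map4k1* was at -0.15 (limma adjusted p = 0.287) and would have passed without Ly5.1 replicate 1 (-0.27, 0.037), *Map4k3* (GLK) was at -0.09 and *Map4k5* at -0.0032. The *Map4k5* value ranged from -0.10 to 0.07 in the fits without 1 sample and was 0.05 after the loess fit. The hematopoietic stem cell, B cell and neutrophil marker sums were lower in the same samples as *Map4k2* and *Map4k4*, and their part was not tested.

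The *Map4k2* promoter (chr19:6340910-6341134, plus strand) is shown because the series concerns a receptor that signals through NF-κB and the window holds a match to the NF-κB consensus, as 8.46% of all promoter windows do. It also holds GC boxes and a CCAAT box (CCAAT). The RefSeq model of *Map4k2* begins at 6340990, within the window, so the NF-κB match and the CCAAT box lie inside the gene model. A match is a description of the letters and does not show binding.
Map4k2: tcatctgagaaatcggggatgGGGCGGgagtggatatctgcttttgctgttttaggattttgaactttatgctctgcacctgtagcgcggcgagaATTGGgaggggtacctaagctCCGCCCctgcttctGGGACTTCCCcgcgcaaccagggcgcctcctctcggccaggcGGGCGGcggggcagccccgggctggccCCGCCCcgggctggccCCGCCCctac

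Promoter entries of 300 bases existed for 30 of the 38 kinases, in 41 windows, and none was found for kinases including *Map3k15*, *Map3k2*, *Map3k8*, *Map4k4*, *Mapk15*, *Mapk3* and *Mapk4*. A GC box was present in 61.0% of the 41 windows and in 35.7% of all 32851 windows, and a CCAAT box in 26.8% and 37.4%. The AP-1 motif was found in 7.32% of the kinase windows (*Map2k6*, *Map2k7* and *Map3k10*) and in 7.81% of all, the cAMP response element in 12.2% and 7.51%, and the E-box in 7.32% (*Map3k12*, *Map4k1* and *Mapk12*) and 7.15%. The ETS motif (CCGGAAG) stood in 7.32% and 8.86%, and the NF-κB consensus in 9.76% (*Map4k1*, *Map4k2* and *Mapk7*) and 8.46%. Both strands were searched, windows of 1 gene can overlap, and these shares are descriptions.

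Fold changes went with transcript length in these samples. Across 12687 tested genes with a transcript, Spearman's correlation between length and log2 fold change was -0.412, and across the 34 kinases it was -0.254 (descriptions across genes of the same 6 samples, which are not independent). Of the 17 shorter kinases, from 1800 to 3695 bases, 9 were above 0 with a median of 0.003, and of the 17 longer ones, from 3898 to 10684 bases, 4 were above 0 with a median of -0.07. *Mapk12*, with 1808 bases, is among the shortest, and *Map4k4*, with 5782, among the longer ones. After each sample's values were corrected by loess on transcript length and GC content, 17 of the 34 kinases were above 0 and their median was -0.0024. *Mapk12* then stood at 0.34 (limma adjusted p = 0.00763), *Map3k10* at 0.31 (0.0259) and *Map4k2* at -0.25 (0.0158), and *Map4k4* no longer passed. The part of transcript length in the remaining differences was not tested.

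**Figure D4:**
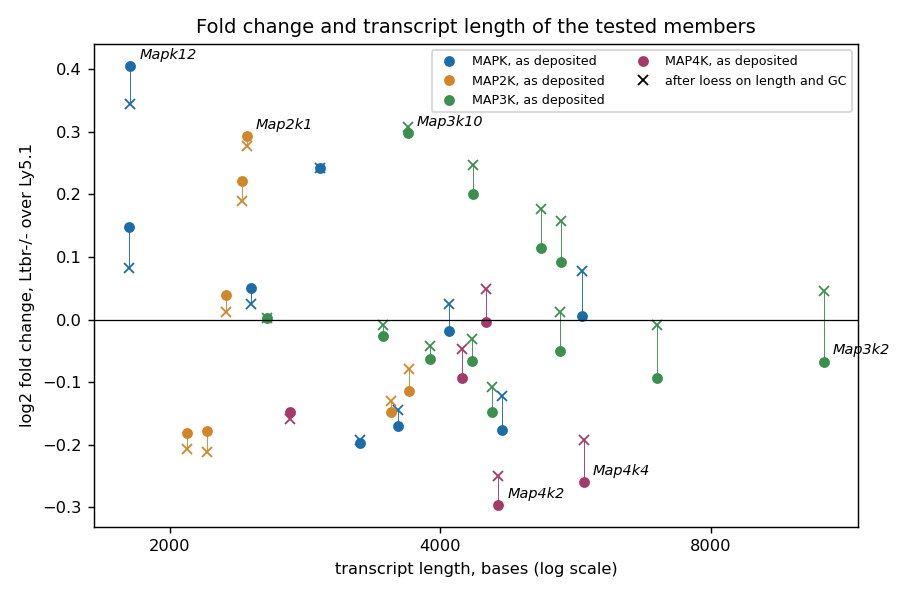
Log2 fold change of *Ltbr*-/- over Ly5.1 against transcript length (log axis, bases) for 33 tested kinases, on the deposited scale (circles) and after a per-sample loess fit on length and GC content (crosses, joined by a line). The correction raises all of the longer kinases plotted, from 3898 bases on, and *Mapk12*, *Map3k10* and *Map4k2* stay away from 0. Centring on ribosomal protein genes would place all values below 0.

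The genes around the cascade were described with 8 lists of 101 genes, of which 88 were tested. Of these, 13 (14.8%, the same share as over all genes) passed the test, 6 higher and 7 lower, none with a fold of 1.5, and the median was -0.07. No RAF kinase (3 tested), Ras-ERK inhibitor (9 tested) or MAPK-activated kinase (11 tested) passed with limma, with medians of -0.04, -0.12 and -0.07. At an unadjusted p under 0.05 by limma, these lists held 0, 2 and 4 genes, against 3555 of all 13108 tested genes. Of the 10 Ras proteins, adaptors and exchange factors tested, *Rasgrp4*, an exchange factor known from mast cells, rose by 0.35 (limma adjusted p = 0.00899) and *Sos2* fell by 0.28 (limma adjusted p = 0.0332). The *Rasgrp4* call was lost without *Ltbr*-/- replicate 2 (limma adjusted p = 0.135) and Ly5.1 replicate 2 (0.0672), and the *Sos2* call without *Ltbr*-/- replicate 1 (0.117), *Ltbr*-/- replicate 3 (0.097), Ly5.1 replicate 1 (0.0559) or Ly5.1 replicate 2 (0.166). The *Sos2* call was also lost after the loess fit (0.112) and without the filter (0.0515). *Rasgrp4* rose as the mast cell genes *Cma1* and *Cpa3* did, while the median of the 6 tested mast cell and basophil markers was -0.07, and their part was not tested.

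Of 9 MAPK phosphatases tested, *Ptpn7*, which removes phosphate from ERK and p38 in blood cells, had 1609, 1515 and 1285 in *Ltbr*-/- and 1800, 1914 and 1983 in Ly5.1. It fell by 0.37 (SE 0.09, limma adjusted p = 0.00224), all *Ltbr*-/- samples being lower, with an adjusted p of 0.0545 without *Ltbr*-/- replicate 3. Of 10 scaffolds, *Arrb2* (β-arrestin 2) rose by 0.41 (limma adjusted p = 0.000167) and *Iqgap1* fell by 0.22 (limma adjusted p = 0.0377). The *Iqgap1* call was lost without *Ltbr*-/- replicate 2 (limma adjusted p = 0.194), *Ltbr*-/- replicate 3 (0.103), Ly5.1 replicate 2 (0.0872) or Ly5.1 replicate 3 (0.111), after the loess fit (-0.13, 0.208), without the filter (0.0618) and without the variance trend (0.0712). Of 14 partners and upstream regulators of MAP3Ks, *Txn1* passed, which encodes thioredoxin, the protein that holds ASK1 inactive in its reduced form. Its signal was 2996, 3530 and 3024 in *Ltbr*-/- and 2329, 1964 and 2318 in Ly5.1. *Txn1* rose by 0.53 (SE 0.09, limma adjusted p = 9.54e-06), with all *Ltbr*-/- samples above all Ly5.1 samples, while *Map3k5* itself was at 0.09 and did not pass. Relative to the median of all genes under centring on ribosomal protein genes, *Txn1* stood at 0.54, *Arrb2* at 0.42 and *Rasgrp4* at 0.36, which restates their deposited differences.

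Transcription factors that MAPKs phosphorylate or induce held 7 of the 13 calls in these 8 lists, with 3 of 22 higher and 4 lower (10.6% and 4.18% of all genes). *Jun*, the AP-1 subunit that JNK phosphorylates, had 7875, 8167 and 8060 in *Ltbr*-/- and 10763, 9648 and 10272 in Ly5.1. *Fos*, its partner and an early target of ERK, had 11176, 10054 and 10520 against 12935, 12721 and 13247. Both were lower in all *Ltbr*-/- samples and fell by 0.35 (SE 0.07, limma adjusted p = 0.000133) and 0.29 (SE 0.06, limma adjusted p = 0.000689). The Fos relative *Fosl2* went the other way on the deposited scale, with 210, 206 and 190 against 149, 149 and 158. It rose by 0.41 (limma adjusted p = 0.000862). Under centring on ribosomal protein genes it stood 0.42 above the median of all genes, which restates the same difference. *Mef2c*, a target of p38 and ERK5, had 814, 826 and 738 against 1116, 973 and 986, and fell by 0.37 (limma adjusted p = 0.00337). These 4 calls held in each of the 6 fits without 1 sample. The other calls, named after their values were seen, were *Egr1* (-0.25), *Myc* (0.22) and *Ddit3* (0.31). *Egr1* lost its call without *Ltbr*-/- replicate 3 (limma adjusted p = 0.241), without Ly5.1 replicate 2 (0.0807) and without the variance trend (0.0688). *Myc* lost it without any of the samples but Ly5.1 replicate 3, with limma adjusted p of 0.0844 to 0.177, and also with quantile normalization (0.13, 0.22), without the filter (0.0682) and without the variance trend (0.0619). *Ddit3*, whose groups overlapped, lost it without *Ltbr*-/- replicate 1 (limma adjusted p = 0.165), *Ltbr*-/- replicate 2 (0.105), Ly5.1 replicate 1 (0.268) or Ly5.1 replicate 2 (0.0803), after the loess fit (0.19, 0.236), without the filter (0.067), without the variance trend (0.0841) and with the replicate block (0.0621). AP-1 subunits thus did not move as a group, since *Jun* and *Fos* fell while *Fosl2* rose on the deposited scale.

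**Figure D5:**
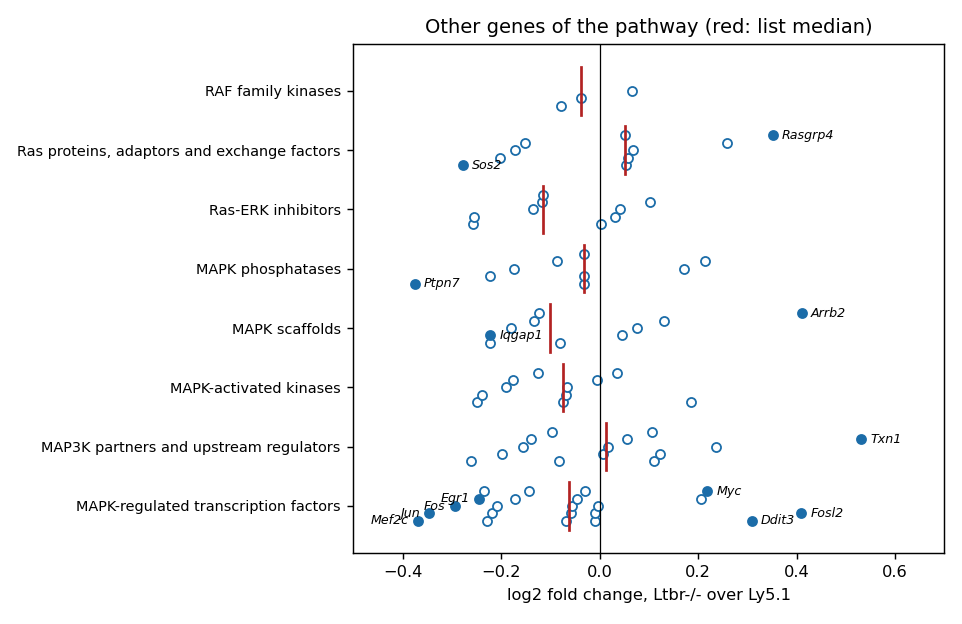
Log2 fold change of *Ltbr*-/- over Ly5.1 for the 88 tested genes of the 8 pathway lists, with filled and named points for an adjusted p under 0.05 by limma and a red bar at the median of each list. The named points number 6 above 0 and 7 below 0 on the deposited scale, *Txn1* lies farthest to the right at 0.53, and centring on ribosomal protein genes places all of them below 0.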

How the data were processed

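RNA-seq of 6 samples of LT/ST-HSCs was used, 3 from *Ltbr*-/- and 3 from Ly5.1 donor cells. Per the study's methods, total RNA of sorted cells was made into stranded poly(A) libraries, single reads of 76 bases were assembled with SeqMan NGen and quantified with ArrayStar, and expression was taken as regularized log values. The processing notes name DESeq2 and the genome builds GRCm38 and mm10, and the annotation is not given in the sources used here. The authors deposited 1 normalized signal per gene name and sample, which is never negative. It was taken from the values themselves to be 2 to the power of the regularized log, so it already holds size factors and a shrinkage that makes differences of low genes smaller. The deposited signal carries no read counts or depth of the single samples, so no counting interval is given. The limma p-values, SEs and intervals rest on the spread between 3 samples per group, which were pools of chimeras. That spread is moderated towards the spread of genes at a similar level. With 36.5 residual plus prior degrees of freedom, most of the weight came from other genes. For a gene with a wide replicate spread, the interval is therefore narrower than its own samples would give. The authors' own comparison of the groups was not used.

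The files hold 26595 rows and 26216 names. Of 75 repeated names, none a kinase of the cascade, the row with the highest mean was kept, and 14 names turned into dates were left as they were. Names in the upper 50% by mean were tested on log2(signal), with no pseudocount since no value was 0, with limma 3.58.1 in R 4.3.3 (lmFit, then eBayes with trend=TRUE), with Benjamini-Hochberg adjustment over 13108 genes. On simulated data of this comparison with 13108 genes, the script recovered 82% of 100 genes changed by 0.5 and 100% of 100 genes changed by 1 on the log2 scale, and 3.7% of its calls were unchanged genes. Changes as small as those of the kinases, at most 0.41, were not simulated. The simulation changed 200 genes with independent noise, whereas 1936 genes passed in the data, so its shares need not hold there. For a single gene the difference of means was also put to an exact permutation test (two-sided), and tables were made in Python 3.11.15 with scipy 1.17.1 and pandas 2.3.3.

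The kinases, branches, pathway lists and marker lists were chosen with earlier results of these data known, and a list is described by its counts and median beside those of all tested genes. Every sample value was given for kinases past the test, for the kinase with the highest mean and those with the largest positive and negative difference in each tier, and for *Mapk3*, *Mapk8*, *Mapk9*, *Mapk14*, *Map2k1* and *Map2k2*. *Mapk13* was added after its values were seen. 1 kinase is counted among the members but not reported here by itself. From each pathway list up to 4 genes past the test were given, and further ones as counts or values chosen afterwards. By symbol 22316 names, and by synonym another 2222, were found in the RefSeq table for GRCm38.p6, which gave positions and promoters, and 24533 had a GENCODE M21 transcript, which gave lengths. Alternatives were a replicate block, filters, summed repeated names, a pseudocount of 10, 3 scalings, 2 variance models, a loess correction on length and GC content, and leaving out each sample.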

Additional observations from a re-analysis of the deposited data

How the results depend on the processing

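Settings other than those of the report left most values where they were, but most kinase calls were lost in at least 1 setting. Of 251 values of the 15 kinases chosen by the rule under alternatives, 215 kept their direction and side of the threshold, 12 lost a call, 14 gained one and 10 turned sign. Only 4 of these kinases had a call to lose, so most of the 215 are values that stayed without a call. All 12 lost calls were those of *Map3k10*, *Map4k2* and *Map4k4*. *Mapk12* lost none but turned negative under centring on ribosomal protein genes. Centring on ribosomal protein genes moved every list, with 12830 genes past the test (0.148% of them higher, against 71.7%), 0 kinases higher, 34 lower, 31 past both thresholds, 88 pathway genes past the test, a kinase median of -0.93 and medians of -0.88 (MAPK), -0.99 (MAP2K), -0.91 (MAP3K) and -1.02 (MAP4K). It turned *Map2k1* (-0.58), *Map2k2* (-0.65), *Map3k10* (-0.58), *Mapk12* (-0.47), *Mapk3* (-0.73) and *Mapk8* (-0.87) negative, and this follows from the shift of -0.89 in the median of all genes. Quantile normalization left 1 kinase higher, a MAP4K median of -0.22 and 57.7% of calls higher. Without the filter, 1 kinase was higher and the kinase median was -0.038. In the upper 25% of names, with 21 kinases tested and *Mapk12* not among them, the medians were -0.17 (MAPK), 0.039 (MAP2K) and -0.26 (MAP4K). After the loess correction, 1 kinase was lower, the kinase median was -0.0024 and the MAP3K median 0.0073.

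Leaving out 1 sample gave 1253 to 1999 genes past the test, 1 to 4 kinases higher, 0 to 2 lower, 0 past both thresholds, 9 to 20 pathway genes, a kinase median of -0.076 to -0.024 and medians of -0.064 to 0.051 (MAPK), -0.17 to -0.036 (MAP2K), -0.045 to 0.011 (MAP3K) and -0.26 to -0.086 (MAP4K), with *Ltbr* at -4.53 to -4.43. The lowest count of genes and 0 kinases lower came without *Ltbr*-/- replicate 3, and 4 kinases higher without Ly5.1 replicate 3. *Mapk8* (-0.099 to 0.086 in all) turned to -0.025, -0.0024 and -0.099 without *Ltbr*-/- replicate 1, *Ltbr*-/- replicate 2 and Ly5.1 replicate 1, and *Map3k11* (-0.16 to 0.026 in all) to 0.026 without Ly5.1 replicate 1. The cause of these changes was not tested. Whether same-numbered samples came from the same chimeras is not stated, and the main test treated all samples as unpaired. The deviations of same-numbered samples correlated at 0.03, -0.01 and 0.09, and only *Ltbr*-/- replicate 3 correlated best with its own number. With 3 samples per group such weak values cannot settle whether the samples were paired. With the replicate block, 1936 genes and the same 4 kinases passed, 2 higher and 2 lower, and only the pathway gene *Ddit3* lost its call (limma adjusted p = 0.0621). The deposited signal carries no depth of single samples, so no limit from depth is stated for single kinases.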
